A study of Mus musculus with 9 samples.

Results

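Metallothioneins and the genes that control zinc beside them were described in 9 mouse RNA-seq libraries of sorted skin keratinocytes and sorted regulatory T cells (Tregs). The set had 6 members, Mt1, Mt2, Mt3, Mt4, Mtf1 and Slc30a1, of 20265 gene symbols present in both tables. They were taken by symbol and chosen by the normalized reads of Mt1 and Mt2, which were higher in every Treg library of Mi2 mice than in the control Tregs. The values of the members in those Treg comparisons are therefore a description and carry no test. Epidermis of adult skin gave 2 WT and 2 Mi2 libraries. Tregs from lymph nodes draining the skin gave 2 Ctl libraries and 3 libraries of Mi2 mice, of which 2 were TSLPR WT and 1 was TSLPR-negative. Mi-2β, the product of Chd4, is an ATPase that remodels chromatin, and TSLPR, the product of Crlf2, is a receptor chain that binds the cytokine TSLP. The column names give WT for the Ctl Tregs, knock-out for the Mi2 libraries and DKO, read as double knock-out, for the TSLPR-negative library. The Treg columns are also named for the skin where the sample labels give lymph nodes. The labels were followed, and the tissue behind the Treg values is uncertain to that extent. The labels name no allele, promoter or Cre line, no strain or age beyond adult skin, no genotype of the Ctl Tregs and no way by which the TSLPR-negative cells were obtained.

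Metallothioneins are small, cysteine-rich proteins that hold zinc and copper ions and take up reactive oxygen. Free zinc is sensed by the transcription factor Mtf1, which binds metal response elements in front of metallothionein genes and of Slc30a1, the exporter that moves zinc out of the cell. Mt1 and Mt2 are made in most tissues and are also known to respond to glucocorticoids, to oxidative stress and to cytokines that act through STAT3, whereas Mt3 is known from the brain and Mt4 from stratified squamous epithelium such as that of the tongue and skin.

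The promoters of the 3 metallothioneins detected in Tregs and of Slc30a1 are printed to show where matches to the core of the zinc-sensing element lie, before the start in Mt1, Mt2 and Slc30a1 and, for Mt3, only after it. Each line gives the 250 bases before the RefSeq start on build GRCm38.p6, on the plus strand from 5′ to 3′. Capitals mark a match to the metal response element core, TGCACNC or TGCGCNC, or to its reverse complement, GNGTGCA or GNGCGCA.
Mt1, chr8:94178839-94179088: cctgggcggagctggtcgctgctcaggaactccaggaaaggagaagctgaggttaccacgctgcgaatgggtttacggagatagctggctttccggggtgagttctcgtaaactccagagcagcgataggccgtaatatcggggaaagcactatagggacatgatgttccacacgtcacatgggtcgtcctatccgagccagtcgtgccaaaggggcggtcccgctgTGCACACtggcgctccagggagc
Mt2, chr8:94172368-94172617: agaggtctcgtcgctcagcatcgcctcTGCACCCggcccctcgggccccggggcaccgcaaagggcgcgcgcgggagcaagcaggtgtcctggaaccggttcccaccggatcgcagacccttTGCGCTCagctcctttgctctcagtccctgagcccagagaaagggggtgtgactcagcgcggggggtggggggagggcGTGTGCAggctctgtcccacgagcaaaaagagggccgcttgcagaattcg
Mt3, chr8:94152357-94152606: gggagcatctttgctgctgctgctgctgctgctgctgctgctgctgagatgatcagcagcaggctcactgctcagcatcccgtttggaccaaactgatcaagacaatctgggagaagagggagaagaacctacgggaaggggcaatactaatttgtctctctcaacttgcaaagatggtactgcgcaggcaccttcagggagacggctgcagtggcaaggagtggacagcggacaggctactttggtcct
Slc30a1, chr1:191906531-191906780: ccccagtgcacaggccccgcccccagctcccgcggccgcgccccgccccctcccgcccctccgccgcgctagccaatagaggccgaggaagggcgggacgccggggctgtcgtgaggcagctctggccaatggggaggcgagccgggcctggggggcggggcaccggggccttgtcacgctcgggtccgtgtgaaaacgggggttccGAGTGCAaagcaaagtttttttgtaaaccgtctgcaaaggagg

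Further matches lay just after the annotated starts, shown as 30-base stretches with the same capitals.
Mt1, chr8:94179089-94179118: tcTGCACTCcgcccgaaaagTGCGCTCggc
Mt2, chr8:94172618-94172647: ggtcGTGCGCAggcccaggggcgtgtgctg
Mt3, chr8:94152617-94152646: gagactcgggacagcagTGCACACacacgg
Slc30a1, chr1:191906791-191906820: acggcggacgcctccgggccGAGCGCAgtc

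Over 250 bases before to 50 bases after the start, Mt2 held 4 cores, Mt1 held 3, Slc30a1 held 2, and Mt3 and Mt4 held 1 each. No core was found in the window of Mtf1. Among 32851 promoter windows of the same length, 0.517% held 4 or more cores, 1.97% held 3 or more, 7.11% held 2 or more and 25.7% held at least 1. The annotated starts of Mt1, Mt2 and Mt3 lie upstream of a TATAAA, found from base 129 of transcript Mt1-201, base 90 of Mt2-201 and base 107 of Mt3-201. In the first 150 bases of those transcripts, a window chosen after the data were seen, Mt1-201 held 4 cores and Mt2-201 and Mt3-201 held 3 each. Slc30a1-201 held 1, a number reached by 15.2% of transcripts, and the other transcripts of these genes and those of Mt4 and Mtf1 held 0. Of 58695 protein-coding transcripts, 0.0545% held 4 or more cores in that window and 0.388% held 3 or more. The antioxidant response element core, searched as TGACNNNGC and GCNNNGTCA, matched once in the windows of Mt2 and Slc30a1 and in 12.4% of all promoter windows. It was not searched in the first 150 bases of the transcripts. Its absence from the window of Mt1 therefore does not cover all bases up to the TATAAA. A match is a description of letters and not evidence of binding.

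**Figure D1:**
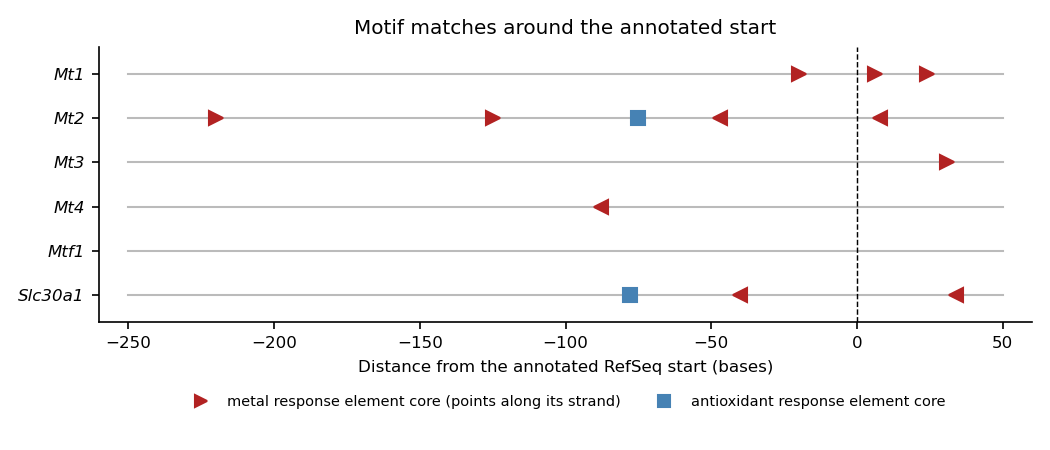
Matches to the metal response element core (triangles, pointing along the matched strand) and to the antioxidant response element core (squares) by distance in bases from the annotated RefSeq start of each gene. Mt2 has 4 metal response element cores in the window, Mt1 has 3, Slc30a1 has 2, Mt3 and Mt4 have 1 each, and Mtf1 has 0.

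The labels were checked before the results. The epidermal libraries held 5682391 to 8913804 reads and the Treg libraries 21849381 to 32238992. In epidermis, Chd4 was at 1607 and 1942 normalized reads in WT and at 734 and 1207 in Mi2, and the keratins Krt5 and Krt14 were at 32292 or more in each library. In Tregs, Foxp3 was between 11159 and 15371, and Chd4 was at 11757 and 15129 in Ctl and between 12374 and 15392 in the 3 Mi2 libraries. Crlf2 was at 51.5 in the library labelled TSLPR-negative and between 395 and 816 in the other 4, and the name of that library's column does not spell TSLPR. Mitochondrially encoded genes took 29.7% of reads in Mi2 epidermis replicate 1 and 12.9 to 15.5% in the other 3 epidermal libraries. Nothing in the labels says whether replicates came from separate animals, so p-values measure the spread between these libraries, which may be technical.

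In Tregs of Mi2 mice, Mt1, Mt2 and Mt3 stood 11.0 to 24.1 times above control Tregs, while the sensor Mtf1 and the exporter Slc30a1 did not go up with them. Mt4 had 0 reads in all 5 Treg libraries, which allows up to 3 reads, or 2.41 to 3.55 normalized reads, in each. These are the contrasts that chose the set. For comparison with the genome, 27.7% of 12206 genes were called in TSLPR WT Mi2 against Ctl Tregs, 14.7% higher and 13.0% lower, and 3.15% were called, 2.63% higher and 0.516% lower, in TSLPR-negative Mi2 against Ctl Tregs, and nothing is read from those shares about the members. Calls here and below are limma's at a Benjamini-Hochberg adjusted p under 0.05 and rest on the filter on low values in Tregs: without it limma called 0 genes in these comparisons, with 5043 and 1942 genes at an unadjusted p under 0.05. Without limma's intensity trend, the calls in TSLPR-negative Mi2 Tregs were 1 gene higher and 0 lower, with 1545 genes at an unadjusted p under 0.05.

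Mt1, the most abundant metallothionein in Tregs, was at 33.1 and 19.3 normalized reads in Ctl, at 558 and 477 in TSLPR WT Mi2 and at 307 in TSLPR-negative Mi2 Tregs. The groups did not overlap, and the TSLPR-negative library lay between the others. The mean of TSLPR WT Mi2, 518 ± 57.6 (SD, n = 2), was 19.8 times that of Ctl, 26.2 ± 9.81 (SD, n = 2), and the TSLPR-negative library was 11.7 times the Ctl mean. On the scale of log2(value + 1), which understates changes of low genes, these differences were 4.30 and 3.55, each the 13th highest of 12206 genes.

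Mt2, the neighbour of Mt1 with the same inducers, was at 8.28 and 5.61 in Ctl, at 157 and 116 in TSLPR WT Mi2 and at 81.9 in TSLPR-negative Mi2 Tregs. Its order over the libraries was that of Mt1 at a lower level. The log2 differences from Ctl were 4.12 and 3.40, which ranked 20 and 17 from the highest. Mt2 rested on 7 reads in each Ctl library and on 97 to 178 reads in the Mi2 libraries.

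Mt3, known as a brain metallothionein, was at 4.73 and 4.01 in Ctl, at 101 and 110 in TSLPR WT Mi2 and at 48.1 in TSLPR-negative Mi2 Tregs. Again the TSLPR-negative library lay between the other groups. The log2 differences were 4.31 and 3.20, ranked 12 and 27, on 4 and 5 reads in Ctl. Markers of neurons and glia did not move in the same way: the summed list was at 141 and 193 in Ctl, at 119 and 116 in TSLPR WT Mi2 and at 65.0 in TSLPR-negative Tregs. Of its 5 genes, Snap25 had 0 reads in all 5 libraries and Gfap was at 0 to 3.55. Tubb3, a neuronal tubulin, was at 0 and 2.41 in Ctl, at 13.2 and 16.9 in TSLPR WT Mi2 and at 9.29 in TSLPR-negative Tregs, and its part in the result was not tested.

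Mtf1, the zinc sensor, was at 806 and 946 in Ctl, at 732 and 673 in TSLPR WT Mi2 and at 830 in TSLPR-negative Mi2 Tregs. The TSLPR-negative library lay inside the Ctl range and the TSLPR WT libraries just below it. The log2 differences from Ctl were -0.31 and -0.07.

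Slc30a1, the zinc exporter at the cell surface, was at 637 and 460 in Ctl, at 318 and 329 in TSLPR WT Mi2 and at 371 in TSLPR-negative Mi2 Tregs. Every Mi2 library was below both Ctl libraries, opposite to the metallothioneins. The log2 differences were -0.74 and -0.55, which ranked 1826 and 1285 from the lowest of 12206 genes. Mtf1 shares 9.1% of the 30-base words of its transcript with 1110065P20Rik, and Slc30a1 shares 8.44% with 1700034H15Rik, on the same or the opposite strand. No strand setting is given, so reads of the shared stretches cannot be told apart.

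**Figure D2:**
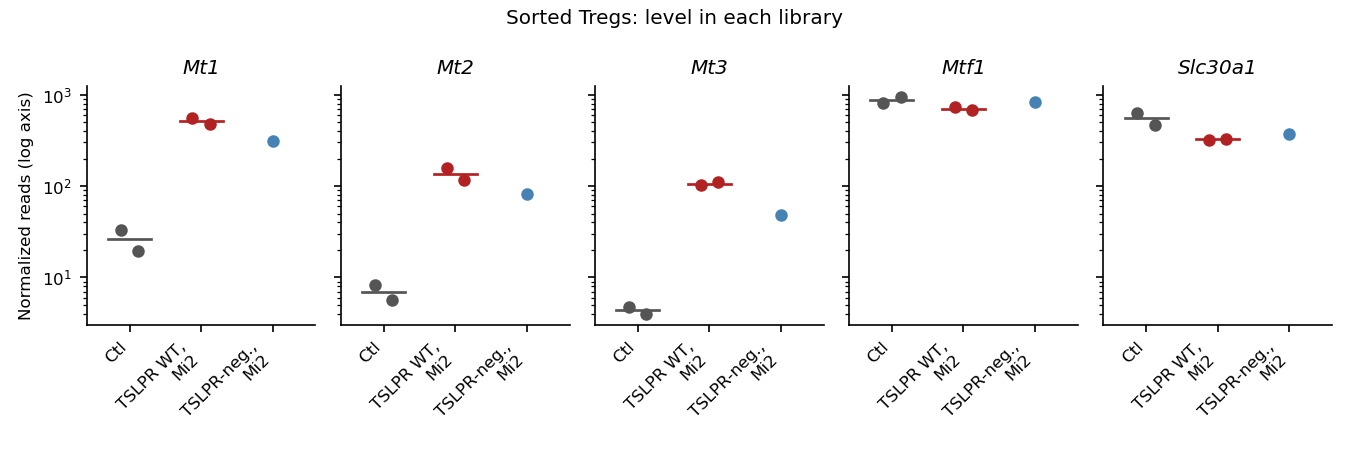
Normalized reads of Mt1, Mt2, Mt3, Mtf1 and Slc30a1 in each Treg library (points, log axis), with a line at the mean of groups with 2 libraries. Mt1 goes from 19.3 to 33.1 in Ctl to 307 to 558 in Mi2 libraries, whereas Mtf1 stays between 673 and 946.

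Per kilobase of transcript, the scale on which genes can be set side by side, the order of the members changed between groups. In Ctl Tregs the mean levels per kilobase were 115 for Mtf1, 105 for Slc30a1, 48.8 for Mt1, 12.6 for Mt2 and 8.20 for Mt3. Mtf1, at 106 and 124, and Slc30a1, at 122 and 88.1, overlapped between the 2 libraries. In TSLPR WT Mi2 Tregs Mt1 came first at 964, followed by Mt2 at 248, Mt3 at 198, Mtf1 at 92.2 and Slc30a1 at 61.9. Mt2, at 285 and 211, and Mt3, at 190 and 205, did not overlap there but differed by less than the gap between the Mt2 libraries. In the TSLPR-negative library the levels per kilobase were 572 for Mt1, 149 for Mt2, 109 for Mtf1, 90.3 for Mt3 and 70.9 for Slc30a1. Mt1 was thus 0.424 times Mtf1 per kilobase in Ctl, 10.5 times in TSLPR WT Mi2 and, again per kilobase, 5.25 times in TSLPR-negative Mi2 Tregs.

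In Tregs the balance between Mt1 and Mt2 lay within counting error of 1 value at every level of the genes. Of the reads of both genes together, Mt1 took 80.0% and 77.4% in Ctl (35 and 31 reads), 78.1% and 80.4% in TSLPR WT Mi2, and 79.0% where the Mi2 Tregs were TSLPR-negative. The exact 95% binomial interval was 63.1 to 91.6% in Ctl replicate 1 and 75.0 to 80.9% in TSLPR WT Mi2 replicate 1, which holds the shares of all 5 Treg libraries. In epidermis the share was lower, with 41.2% and 37.3% for WT and 35.6% and 33.1% for Mi2, and an interval of 31.6 to 34.7% for the last. Such intervals cover counting error alone. The tissues were counted in separate tables, so the gap between them also holds any difference in counting. Of the 30-base words of the Mt2 transcript, 56.8% lie in another gene on the same or the opposite strand, almost all in Gm45774. The longest stretch that Mt1 shares with Mt2 was 20 bases, and 16 bases with Mt3.

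Among 11506 Treg genes with a mean of at least 20, the profiles most like Mt1 over the 5 libraries were those of the other metallothioneins. Likeness was the root mean square difference between log2(value + 1) profiles centred on their own means. Mt2 ranked first at 0.13 and Mt3 second at 0.25, followed by Lphn2 at 0.32, Oit3 at 0.32 and Gzmf at 0.37. Mtf1 ranked 7825 and Slc30a1 9843. Mt1 and Mt2 were chosen because both were higher in these same Mi2 libraries, so the rank of Mt2 follows in part from that choice. Mt2 and Mt3, at 4.01 to 8.28 in Ctl, reached the mean of 20 only through the Mi2 libraries, as did Lphn2, Oit3 and Gzmf. The rank of Mt3 is therefore not separate from that choice either. These points also share their libraries and were picked for likeness, so they carry no test.

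The metallothionein genes stand side by side on chromosome 8, in the order Mt4, Mt3, Mt2, Mt1, all on the plus strand, within 43124 bases (mm9, chr8:96661104-96704227). Not every gene of the region went up in Mi2 Tregs. Nup93, a nuclear pore gene next to Mt1, was at 1162 and 1034 in Ctl, at 2172 and 2724 in TSLPR WT Mi2 and at 1957 in TSLPR-negative Mi2 Tregs. Its log2 change was 1.15 in TSLPR WT Mi2 (limma, adjusted p = 0.00107). Bbs2, a cilium gene on the Mt4 side, was at 183 and 211 in Ctl, at 64.4 and 83.6 in TSLPR WT Mi2 and at 163 in TSLPR-negative Tregs, and fell by 1.41 on the log2 scale in TSLPR WT Mi2 (limma, adjusted p = 0.00504). Ogfod1, the next gene beyond, was at 647 and 804 in Ctl and at 717 and 520 in TSLPR WT Mi2 (limma, adjusted p = 0.504).

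TSLPR-negative Tregs of Mi2 mice were also compared with TSLPR WT Tregs of Mi2 mice. With a single TSLPR-negative library, loss of TSLPR on the Tregs, its loss elsewhere in the animal and a difference between libraries cannot be told apart. The set was chosen because Mt1 and Mt2 were high in both of these groups, so their differences here are a description with no test. The Mt1 level in the TSLPR-negative library, 307 against 558 and 477, was 1.68 times lower than the mean of TSLPR WT, a log2 difference of -0.75. For Mt2 the log2 difference was -0.72, at 81.9 against 157 and 116. Mt3 differed by -1.11, at 48.1 against 101 and 110. Mt3 followed Mt1 closely over these libraries and passed the filter on low values only through the Mi2 libraries. Its choice is not separate from that of Mt1 and Mt2, so it too is described with no test. Neither Mtf1 nor Slc30a1 was called, against 0.942% of 12206 genes tested, and edgeR and DESeq2 on recovered reads called neither. At an unadjusted p under 0.05, limma also counted neither. Mtf1 differed by 0.24, from -0.34 to 0.82, and Slc30a1 by 0.20, from -0.48 to 0.87. The fit takes the spread of the single TSLPR-negative library from the groups with 2 libraries.

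Markers of other cell types differed between Ctl and Mi2 Treg libraries in both directions. The summed B cell markers were at 5531 and 2680 in Ctl and between 1076 and 1270 in the 3 Mi2 libraries, with none of the 6 genes at 0. The 5 Langerhans cell markers, which include the leukocyte gene Ptprc, summed to 60494 and 47020 in Ctl and to between 32080 and 36423 in Mi2 libraries, with none at 0. The melanocyte list, of which Pmel alone had reads, was at 942 and 982 in Ctl and between 494 and 672 in Mi2 libraries. Fibroblast markers, with Lum at 0, were at 39.1 and 39.3 in Ctl and between 67.0 and 88.6 in Mi2 libraries, and markers of conventional or cytotoxic T cells, none at 0, were at 2983 and 2905 in Ctl and between 3515 and 3593. The part of these lists in the result was not tested.

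Other lists did not separate Ctl from all Mi2 libraries. Of 7 keratinocyte markers, Krt5, Krt14, Krt15 and Trp63 had 0 reads in all 5 Treg libraries, while the sum of the list, nearly all of it the integrin gene Itga6, was at 8547 and 7751 in Ctl, at 4416 and 4973 in TSLPR WT Mi2 and at 8250 in TSLPR-negative Tregs. The endothelial sum, with Tie1 at 0, was at 4430 and 4177 in Ctl, at 2146 and 2898 in TSLPR WT Mi2 and at 4190 in TSLPR-negative Tregs. The sums of both lists were thus lower in TSLPR WT Mi2 than in the other 3 libraries. Markers of dendritic cells and macrophages were at 337 and 245 in Ctl and between 138 and 296 in Mi2 libraries, and those of neutrophils between 5.61 and 23.9 in all 5. In such bulk samples, fewer cells of a type and less RNA per cell cannot be told apart.

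In epidermis, the keratinocytes of Mi2 mice had more Mt2 and more Slc30a1 transcript and far less Mt4 than those of WT mice. Of the 5 members tested there, 2 were called higher and 1 lower, against 28.2% of 14461 genes called in all, 15.1% higher and 13.1% lower. The rule that chose the members used Treg libraries and no epidermal value, although the epidermal results were known when the set was made. Scaling without mitochondrially encoded genes moved the median log2 change of all genes from -0.03 to -0.27, and scaling without the 50 most abundant genes moved it to -0.16. The split of calls, 2185 higher and 1900 lower, then became 1531 and 2743, and 1738 and 2099. Mt2 and Slc30a1 stayed called higher and Mt4 called lower in both.

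Mt2 had the most reads of the members in keratinocytes, at 1803 and 2060 normalized reads in WT and at 5993 and 3244 in Mi2. Both Mi2 libraries were above both WT libraries, with the high value in the replicate rich in mitochondrial reads. The log2 change was 1.19 ± 0.31 (SE), or 2.29-fold (limma, adjusted p = 0.0293). The call was lost without WT replicate 1 (limma, adjusted p = 0.130) or WT replicate 2 (limma, adjusted p = 0.0709), and the change was 0.75 without Mi2 replicate 1 (limma, adjusted p = 0.0440).

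Mt1 was at 1261 and 1225 in WT and at 3314 and 1606 in Mi2. The groups did not overlap, but the Mi2 replicates differed 2.06-fold from each other. The log2 difference was 0.89 ± 0.33 (SE) and did not pass the test (limma, adjusted p = 0.0844). With the replicate number as a block the same difference was called (limma, adjusted p = 0.0255), and DESeq2 on recovered reads called it at 0.99 (adjusted p = 0.0209). It was 0.37 without Mi2 replicate 1 (limma, adjusted p = 0.159), and it was called at 1.41 without Mi2 replicate 2 (limma, adjusted p = 0.00733).

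Mt4, the metallothionein of stratified epithelium, was at 188 and 148 in WT and at 9.29 and 9.54 in Mi2 keratinocytes. The Mi2 libraries held 7 reads each and the WT libraries 189 and 204. Mt4 fell by 4.01 on the log2 scale (SE 0.34), and its WT mean, 168 ± 27.9 (SD, n = 2), was 17.8 times the Mi2 mean, 9.41 ± 0.18 (SD, n = 2; limma, adjusted p = 8.9e-04). It ranked 84 from the lowest of 14461 genes, and it was called under every alternative run, with an adjusted p of at most 0.0122.

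Slc30a1 was at 104 and 126 in WT and at 372 and 244 in Mi2 keratinocytes, so here the exporter was high where the metallothionein Mt2 was high. The log2 change was 1.39 ± 0.27 (SE), or 2.62-fold (limma, adjusted p = 0.0125). The call was lost without WT replicate 1 (limma, adjusted p = 0.0969). Mtf1 was at 158 and 228 in WT and at 141 and 263 in Mi2, with groups that overlapped and a log2 difference of 0.02 with an interval from -0.80 to 0.84 (limma, adjusted p = 0.970), whose sign turned under both other scalings. Mt3 had 1 read in 1 WT library and 0 in the other 3, so it was not tested.

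**Figure D3:**
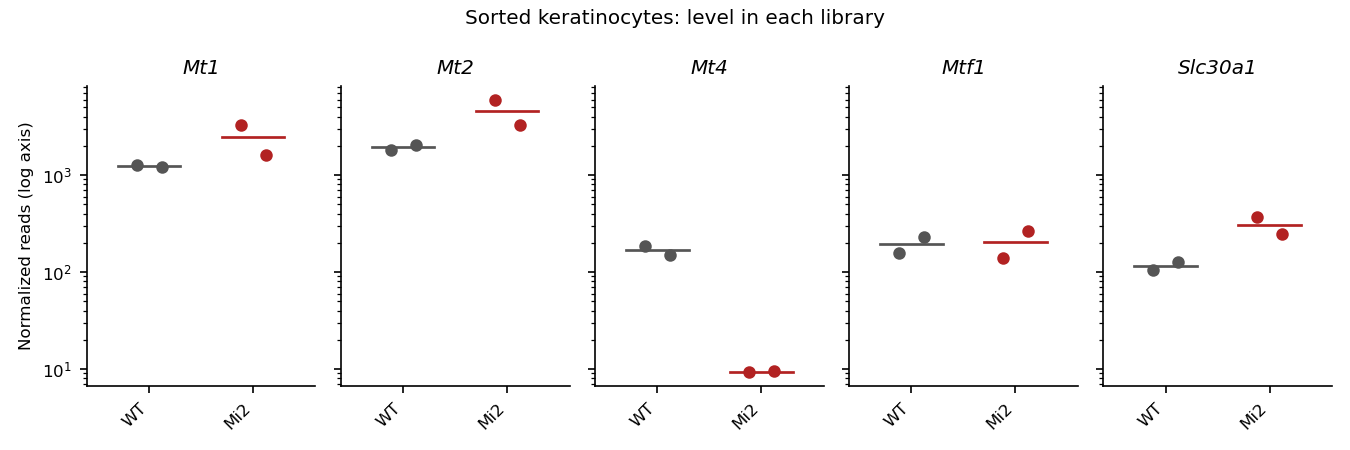
Normalized reads of Mt1, Mt2, Mt4, Mtf1 and Slc30a1 in each keratinocyte library (points, log axis), with a line at the mean of each group of 2. Mt4 drops from 188 and 148 in WT to 9.29 and 9.54 in Mi2, and Slc30a1 is at 372 and 244 in Mi2 against 104 and 126 in WT.

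Beside these values, the summed markers of Langerhans cells were at 545 and 569 in WT and at 1513 and 1830 in Mi2 epidermis, with 0 of 5 genes at 0 in every library and the leukocyte gene Ptprc between 1.36 and 5.31. The neuron and glia markers, with Snap25 at 0, were at 82.4 and 65.3 in WT and at 342 and 176 in Mi2, with the higher Mi2 value in replicate 1, as for Mt1 and Mt2. The B cell sum was at 0.99 and 2.18 in WT and at 13.3 and 9.54 in Mi2, and the endothelial sum at 0 in both WT libraries and at 9.29 and 4.09 in Mi2. The sum of the Treg list, with Cd4 and Trac at 0, was lower in Mi2, at 340 and 426 against 887 and 1134 in WT. Its gene Foxp3 went the other way, at 39.8 and 23.2 in Mi2 against 21.8 and 18.9 in WT. Cd3e, of the same list, was at 0 and 2.72 in Mi2 against 11.9 and 5.08 in WT. The melanocyte sum was at 127 and 108 in Mi2 against 131 and 166 in WT. The sums of dendritic cell and macrophage, neutrophil, fibroblast and conventional T cell markers overlapped between the groups. The part of these lists in the result was not tested. Keratinocyte markers summed to 237031 to 283063 in the 4 libraries. By profile, the genes most like Mt1 over the 4 epidermal libraries were Hist3h2a at 0.01, Gm15590 at 0.04, Gm7931 at 0.04, Irx5 at 0.05 and Itga6 at 0.05, among 13109 genes. Mt2 ranked 232 there, Slc30a1 1239, Mtf1 8770 and Mt4 12940. Next to the cluster, Nup93 rose by 1.31 in Mi2 epidermis (limma, adjusted p = 0.00947) and Bbs2 fell by 2.30 (limma, adjusted p = 0.0151) on the log2 scale, the directions seen in TSLPR WT Mi2 Tregs.

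Of the 4 zinc transporters called in TSLPR WT Mi2 against Ctl Tregs, 3 were also called in epidermis. These were Slc39a4, higher in both, Slc39a3, lower in both, and Slc30a4, higher in epidermis and lower in Tregs. Of all genes tested in epidermis, 28.2% were called, 15.1% higher and 13.1% lower, and nothing is read from an overlap of so few genes. The Slc30 family moves zinc out of the cytosol, to the outside or into vesicles, and the Slc39 family brings zinc into it. In epidermis, 5 of 11 tested importers were called higher and 2 lower, with a median log2 change of 0.11 against -0.03 for all genes tested. Without WT replicate 2 the counts were 3 and 1. Of 6 tested exporters other than Slc30a1, 1 was called higher and 0 lower, with a median of -0.02. That gene was Slc30a4, at 246 and 227 in WT and at 537 and 375 in Mi2, with a log2 change of 0.92 (limma, adjusted p = 0.0286). Its call was lost when WT replicate 1, WT replicate 2 or Mi2 replicate 1 was left out (limma, adjusted p = 0.144, 0.172 and 0.0570) and when scaled without mitochondrial genes (limma, adjusted p = 0.0564).

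Slc39a4, the intestinal zinc importer whose loss causes acrodermatitis enteropathica, had 0 reads in both WT epidermal libraries and was at 74.3 and 64.0 in Mi2. Against 3 reads in each WT library it was at least 26.8-fold higher (limma, adjusted p = 0.00138). Slc39a6 was at 366 and 376 in WT and at 1364 and 1225 in Mi2, a log2 change of 1.8 (limma, adjusted p = 0.00153). Slc39a10 was at 187 and 211 in WT and at 586 and 535 in Mi2, a log2 change of 1.49 (limma, adjusted p = 0.00371). Slc39a3 went the other way, from 262 and 266 in WT to 10.6 and 47.7 in Mi2, and fell by 3.48 on the log2 scale (limma, adjusted p = 0.00850). The Mi2 replicates of Slc39a3 were far apart, but both were below the WT libraries.

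In TSLPR WT Mi2 against Ctl Tregs, 1 of 6 exporters was called higher and 1 lower, with a median log2 change of -0.33 against -0.01 for all genes tested. Of 12 importers, 1 was called higher and 1 lower, with a median of 0.03. Of all genes tested there, 14.7% were called higher and 13.0% lower. Slc30a2, which loads zinc into vesicles, was at 29.6 and 37.7 in Ctl, at 207 and 207 in TSLPR WT Mi2 and at 181 in TSLPR-negative Mi2 Tregs. It rose by 2.60 in TSLPR WT Mi2 (limma, adjusted p = 7.5e-05) and by 2.40 in TSLPR-negative Mi2 (limma, adjusted p = 0.00643) on the log2 scale, and the difference between those groups was -0.20 (limma, adjusted p = 0.920). The comparisons share the Ctl libraries. In epidermis Slc30a2 was at 30.8 and 30.5 in WT and at 30.5 and 21.8 in Mi2 (limma, adjusted p = 0.669).

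Slc39a4 was at 222 and 316 in Ctl, at 683 and 675 in TSLPR WT Mi2 and at 405 in TSLPR-negative Mi2 Tregs, a log2 change of 1.35 in TSLPR WT Mi2 (limma, adjusted p = 0.00146) and of 0.61 in TSLPR-negative Mi2 (limma, adjusted p = 0.453). Its TSLPR-negative library lay between the other groups, as for Mt1. The called falls were Slc30a4, at 464 and 234 in Ctl and 115 and 218 in TSLPR WT Mi2, and Slc39a3, at 493 and 713 in Ctl and 353 and 358 in TSLPR WT Mi2, with log2 changes of -1.05 and -0.74 (limma, adjusted p = 0.0456 and 0.0448). Slc30a4 was not called without Ctl replicate 1 (limma, adjusted p = 0.361) or TSLPR WT Mi2 replicate 1 (limma, adjusted p = 0.251). Slc39a3 was not called without Ctl replicate 2 (limma, adjusted p = 0.290) or either TSLPR WT Mi2 replicate (limma, adjusted p = 0.109 and 0.105). In TSLPR-negative Mi2 against Ctl Tregs, Slc30a2 was the 1 exporter called of 6, and 0 of 12 importers were called. There, 3.15% of all genes tested were called.

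**Figure D4:**
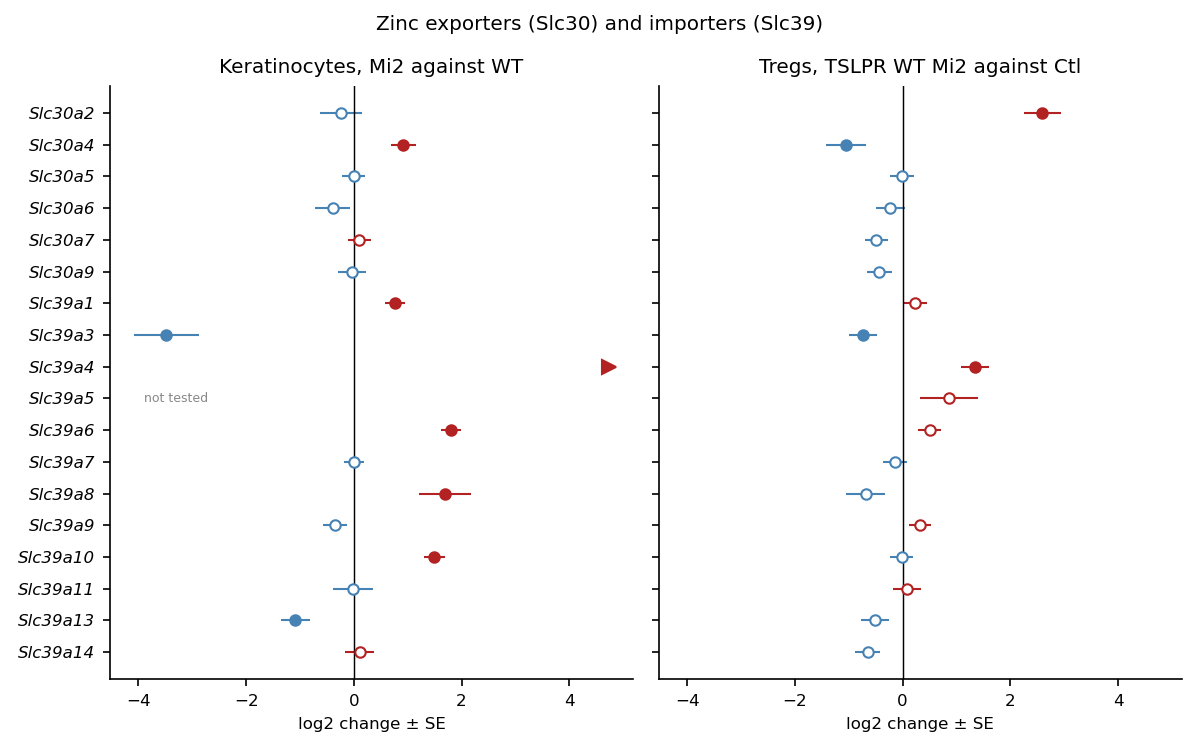
Log2 change ± SE of Slc30 and Slc39 zinc transporters in keratinocytes (left) and in TSLPR WT Mi2 Tregs (right), filled where called and open where not; the arrow for Slc39a4 in keratinocytes is a lower bound. Slc30a2 is at 2.60 in Tregs and not called in keratinocytes, and Slc39a4 is called higher in both.

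Lists of genes that answer to other known inducers of metallothioneins were read in the same fits. The lists differ in size and were chosen with earlier results of these data known, so their counts and medians carry no test. For comparison, 15.1% of all genes tested in epidermis were called higher and 13.1% lower. The shares were 14.7% and 13.0% in TSLPR WT Mi2 against Ctl Tregs and 2.63% and 0.516% in TSLPR-negative Mi2 against Ctl Tregs. Between TSLPR-negative and TSLPR WT Tregs they were 0.737% and 0.205%. Oxidative stress genes, mostly targets of Nfe2l2 such as thioredoxin and its reductase, held the largest number of calls in Tregs: in TSLPR WT Mi2 against Ctl, 8 of 13 were called higher and 1 lower, with a median log2 change of 0.90 against -0.01 for all genes. Leaving out any 1 library of either group left 7 higher. Txn1, thioredoxin, was at 1248 and 1102 in Ctl, at 3516 and 3806 in TSLPR WT Mi2 and at 2500 in TSLPR-negative Mi2 Tregs, a log2 change of 1.64 in TSLPR WT Mi2 (limma, adjusted p = 4.4e-05). Nqo1, a quinone reductase, was at 29.6 and 16.8 in Ctl, at 179 and 171 in TSLPR WT Mi2 and at 99.6 in TSLPR-negative Mi2 Tregs, a change of 2.91 (limma, adjusted p = 9.4e-05). For both genes the TSLPR-negative library lay between the other groups.

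Prdx1, a peroxiredoxin, rose by 1.27 (limma, adjusted p = 3.2e-04), and Osgin1, a stress-induced growth inhibitor, fell by 2.73 (limma, adjusted p = 6.7e-04) on the log2 scale in TSLPR WT Mi2 Tregs. In TSLPR-negative Mi2 against Ctl Tregs, Txn1 and Nqo1 were the 2 of 13 called higher, with changes of 1.09 (limma, adjusted p = 0.0252) and 2.11 (limma, adjusted p = 0.0275), and neither was called without Ctl replicate 2 (limma, adjusted p = 0.0525 and 0.0875). In epidermis 6 of 14 were called higher and 0 lower, with a median of 0.74, but 0 were called without WT replicate 1 and 3 without WT replicate 2. There Osgin1 went the other way, from 4.96 and 7.26 in WT to 47.8 and 40.9 in Mi2, a change of 2.69 (limma, adjusted p = 0.00818; 0.0602 without WT replicate 1).

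Glucocorticoid-response genes were mixed. In epidermis 4 of 12 were called higher and 5 lower, with a median of -0.38. Without WT replicate 1 these counts were 1 and 2, and without WT replicate 2 they were 2 and 2. In TSLPR WT Mi2 against Ctl Tregs 2 of 12 were called higher and 1 lower, with a median of -0.13, and 2 and 5 without TSLPR WT Mi2 replicate 1. In TSLPR-negative Mi2 Tregs 1 of 12 was called higher and 0 lower against Ctl, with a median of 0.63 against 0.04 for all genes, and the median against TSLPR WT Mi2 was 0.62 against 0.03, each the highest of the 7 lists in its comparison. The count against Ctl was 3 without Ctl replicate 1 and 4 without either TSLPR WT Mi2 replicate. Fkbp5, an immunophilin that binds the glucocorticoid receptor, rose in epidermis by 2.02 (limma, adjusted p = 0.00584), in TSLPR WT Mi2 Tregs by 1.67 (limma, adjusted p = 7.8e-04) and in TSLPR-negative Mi2 Tregs by 2.06 (limma, adjusted p = 0.00643) on the log2 scale. Its TSLPR WT Mi2 Treg libraries were far apart, at 8764 and 3926, against 2027 and 1679 in Ctl. Sgk1, a kinase, rose by 1.04 in epidermis (limma, adjusted p = 0.00985) and by 1.79 in TSLPR WT Mi2 Tregs (limma, adjusted p = 2.9e-04). Errfi1 and Cebpd were the other genes called higher in epidermis. Besides Pik3ip1, Nr3c1, Tsc22d3, Dusp1 and Klf9 were called lower there, with log2 changes of -1.28, -1.19, -1.63 and -1.09. None of Nr3c1, Tsc22d3, Dusp1 and Klf9 was called in TSLPR WT Mi2 against Ctl Tregs. Pik3ip1, an inhibitor of PI3 kinase, fell by 2.21 in epidermis (limma, adjusted p = 0.00165) and by 1.14 in TSLPR WT Mi2 Tregs (limma, adjusted p = 0.00104). It was the 1 gene of the 7 lists called between TSLPR-negative and TSLPR WT Tregs, at 2656 against 988 and 952, a log2 change of 1.45 (limma, adjusted p = 0.0193; 0.213 without the intensity trend and 0.452 with no filter on low values). In that comparison 5 glucocorticoid-response genes were called without TSLPR WT Mi2 replicate 1 and 2 when 1 Ctl library, whichever, was left out, while the oxidative-stress and zinc-exporter lists gained 1 each without TSLPR WT Mi2 replicate 2.

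With all libraries fitted, STAT3-response genes were called in 1 direction in epidermis and in both in Tregs. Without Mi2 replicate 1, calls in epidermis went in both directions too. In epidermis 5 of 10 were called higher and 0 lower, with a median of 0.81, led by the transcription factors Cebpb, at 381 and 377 in WT and at 1003 and 849 in Mi2, and Bcl3, at 20.8 and 50.1 in WT and at 198 and 301 in Mi2. In TSLPR WT Mi2 against Ctl Tregs 1 of 9 was called higher and 3 lower, with a median of -0.03 against -0.01 for all genes; the difference between tissues was not tested. Il4ra, a chain of the interleukin-4 receptor, led the Treg list, at 7183 and 8402 in Ctl and 3055 and 4055 in TSLPR WT Mi2, and fell by 1.14 on the log2 scale (limma, adjusted p = 0.00127). Socs3 fell by 0.83 (limma, adjusted p = 0.0123), and Junb rose by 0.84 (limma, adjusted p = 0.0150). Neither was called without the intensity trend (limma, adjusted p = 0.0691 and 0.0908). Without WT replicate 1 the epidermal count was 2, and the Treg counts were 0 and 2 without Ctl replicate 1, 1 and 1 without Ctl replicate 2, and 1 and 2 without either TSLPR WT Mi2 replicate. Myc, a transcription factor with a log2 change of -0.63 in Tregs (limma, adjusted p = 0.0468), lost its call under 7 alternatives, among them edgeR (adjusted p = 0.0621) and DESeq2 (adjusted p = 0.0518).

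Heat shock genes gave 3 of 12 higher and 0 lower in epidermis, with a median of 0.48, and 1 of 10 higher and 0 lower in TSLPR WT Mi2 Tregs, with a median of 0.09. The epidermal count was 1 without WT replicate 1, 2 without WT replicate 2 and 6 without Mi2 replicate 2. The Treg count was 0 without Ctl replicate 2 or TSLPR WT Mi2 replicate 2 and 2 without TSLPR WT Mi2 replicate 1. Copper-handling genes gave 0 of 9 higher and 2 lower in epidermis, with a median of 0.03, and 3 of 9 higher and 1 lower in TSLPR WT Mi2 Tregs, with a median of 0.56. The 9 include Mtf2, which is not itself a copper-handling gene and was called in neither comparison. The epidermal falls were Slc31a2, a copper transporter, from 614 and 579 to 162 and 274, and Ccs, the copper chaperone of Sod1, from 90.3 and 92.9 to 27.9 and 31.3, and 0 were called without WT replicate 1 and 1 without WT replicate 2. Commd1, a copper-export factor, was called higher in TSLPR WT Mi2 Tregs, at 395 and 392 in Ctl and 723 and 857 in TSLPR WT Mi2 (limma, adjusted p = 0.00568), and its call held without each library in turn, while the list's counts ranged from 1 to 2 higher and 0 to 2 lower in those fits.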

How the data were processed

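Keratinocyte reads were given over 36442 Ensembl genes and Treg reads over 33022 RefSeq transcripts of 24016 symbols on mm9, the latter counted with HOMER per the file headers. The submitters' processing notes list bcl2fastq 1.8.3, STAR and DESeq2. Both tables hold a deposited signal, a normalized read count made by the authors from whole reads times 1 factor per library; 100% of values above 0 were whole reads within 0.05 reads after division by that factor. Neither aligner settings nor a strand setting were stated in the sources used here. The Treg transcript with the highest mean stood for its symbol.

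The tests were limma 3.58.1 fits (R 4.3.3, intensity trend) of log2(value + 1) for genes with a mean of at least 10, two-sided, with 4 epidermal libraries in 1 fit and 5 Treg libraries in another. edgeR 4.0.16 and DESeq2 1.42.0 on recovered reads, other pseudocounts, filters and scalings, a replicate block and leaving out each library were alternatives. The fits were tested on simulated data. The members and gene lists were chosen with earlier results of these data known. Named genes are the 6 members, up to 4 genes with the smallest p of each list and the 5 genes most like Mt1. The neighbours Nup93, Bbs2 and Ogfod1 and the marker genes set beside results were named after the data were seen. So were Mtf2 and the further glucocorticoid-response genes called in epidermis. The design had foreseen a comparison of metallothionein protein sequences, which is not used here. Promoter and start sequences are from RefSeq on GRCm38.p6, and transcript sequences from GENCODE.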

Additional observations from a re-analysis of the deposited data

Results flagged for a closer look

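Slc30a1 moved in opposite directions in the tissues: its log2 change was 1.39 in Mi2 against WT epidermis and -0.74 in TSLPR WT Mi2 against Ctl Tregs. Every Mi2 library lay above both WT libraries in epidermis and below both Ctl libraries in Tregs. How many of all genes separate the groups in this way was not counted. The Treg value comes from a contrast that chose the set and carries no test. It ranked 1826 from the lowest of 12206 genes, and the epidermal change ranked 1375 from the highest of 14461. The difference between the tissues was not tested, since the tissues are in separate tables.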

How the results depend on the processing

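In epidermis, leaving out each library gave 771 to 2716 genes called higher and 342 to 3099 lower; Mt1 changed by 0.37 to 1.41, Mt2 by 0.75 to 1.64, Slc30a1 by 1.09 to 1.69 and Mtf1 by -0.43 to 0.47, turning to -0.24 without WT replicate 1 and -0.43 without Mi2 replicate 2. Mtf1 also turned to -0.11 when scaled without the 50 most abundant genes and -0.21 without mitochondrial genes. DESeq2 called Mt1 at 0.99. Mt2 kept 1.19 but was not called without the filter (adjusted p = 0.0550) or without the trend (adjusted p = 0.0761).

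With the replicate number as a block, Mt1 was called at the same 0.89 (limma, adjusted p = 0.0255), and the counts were 2612 higher and 2558 lower in epidermis and 2260 and 2101 in TSLPR WT Mi2 against Ctl Tregs. The number is all that the labels give such pairs of libraries in common, and whether they also shared a batch cannot be told. The differences between replicates 1 and 2 correlated across genes at 0.12 between WT and Mi2 epidermis. Between Ctl and TSLPR WT Mi2 Tregs they correlated at 0.09.

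In TSLPR WT Mi2 against Ctl Tregs, 0 genes were called without the filter and 1059 lower without the trend. Mt2 was 3.56 with a pseudocount of 5, and Mt3 was 4.57 in edgeR, 4.60 in DESeq2, 4.45 with a pseudocount of 0.5 and 3.56 with 5. In TSLPR-negative Mi2 against Ctl Tregs, 0 genes were called without the filter, 1 higher and 0 lower without the trend, and 108 lower by DESeq2; leaving out a library gave 260 to 506 higher and 52 to 181 lower. Mt2 was 2.87 with a pseudocount of 5, Mt3 was 3.42 in edgeR and in DESeq2 and 2.50 with a pseudocount of 5, and Mtf1 ranged from -0.19 to 0.042 with a library left out, turning to 0.042 without Ctl replicate 2. Between TSLPR-negative and TSLPR WT Tregs, DESeq2 called 143 higher and 93 lower, 0 were called without the filter (1741 at an unadjusted p under 0.05), 2 higher and 1 lower without the trend (1280), and leaving out a library gave 123 to 318 higher and 36 to 135 lower. In the bases before the start alone, Mt1 held 1 core, Mt3 0 and Slc30a1 1. The cause of these changes was not tested, beyond the fewer samples of the fits that leave one out.

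Of the values of single list genes under the alternatives, 560 kept their side of the threshold, 89 lost the call in the same direction and 1, the overlap of genes most like Mt1 in Tregs with a pseudocount of 5 (3 of 5), moved. The fit of TSLPR WT Mi2 against Ctl without the TSLPR-negative library and the likeness and transcript windows were added after the data were seen. Low depth limits Mt2 and Mt3 in Ctl Tregs, at 4 to 7 reads, and Mt4 in Mi2 epidermis, at 7.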
